A study of Homo sapiens with 4 samples.

Results

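Start sites of stand-alone long noncoding RNA (lncRNA) genes were examined for binding of metal-responsive transcription factor 1 (MTF-1) in cells grown with and without cadmium. A stand-alone start was the gene 5′ end of a GENCODE 44 lncRNA gene on chromosomes 1 to 22 or X that lay over 5 kb from every transcript start of a protein-coding gene, and its region was 1 kb on either side. This rule found 12435 starts among 18756 lncRNA genes and among 62062 gene 5′ ends of all kinds, and 3499 of them had a gene symbol. The rule used no measured value. The cells were MDA-MB-231, an established human breast cancer line of the basal, mesenchymal type. The control group was 2 libraries from cells passaged serially in normal medium without cadmium. The cadmium group was 2 libraries from cells of the same line passaged in CdSO4 until they were resistant. The dose started at 5 µM and was raised to 10 µM, at which the cells were then passaged. The group thus represents cells selected over a long exposure and not a brief one. In both groups MTF-1 was profiled with an anti-MTF1 antibody by CUT&RUN, in which the antibody directs a nuclease to the bound protein and the DNA that is cut free is sequenced.

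MTF-1 is a zinc finger protein that binds metal response elements (MREs) in DNA when zinc rises. Cadmium also raises its activity, but whether it then uses the usual MRE is in doubt. It is best known for turning on the metallothionein genes. LncRNA genes give rise to transcripts that are not translated. Many lncRNA starts sit head to head with a coding gene and share its promoter, so a peak there cannot be assigned to either of the pair. Starts that stand alone largely avoid this, although a wide peak can still reach a coding start. They often resemble enhancers in that they are active in few cell types and poor in CpG.

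Each condition was available as 1 list of peaks called on the merged reads of its 2 libraries. The control list held 69299 peaks and the cadmium list 60130. They gave the start and end of each peak on a grid of 200 bp bins and no height or read count, so the depth behind a peak is unknown and no measure of the spread between the 2 libraries was left. No test of cadmium against control was possible, and the values below describe the 2 lists. Intervals are 95% confidence intervals that cover counting error only, and neighbouring starts can share a peak. As a check of the cell type, the starts of VIM, CD44 and AXL, which are active in this line, had a peak in both lists. Those of ESR1, PGR and CDKN2A (low or deleted in this line) and of ALB, RBFOX3, PTPRC and CD3E (liver, neuron and blood) had none. EPCAM, low in this line, and SNAP25, a neuronal gene, had a peak in both lists, and APOA1, a liver gene, had a control peak only.

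Sequences of 6 starts are shown because they carry the strings that the results below count. Each runs from 250 bases before to 50 bases after the start (hg38, read on the gene's strand). For the first 4 genes, which are members of the gene lists below with a peak and an AP-1 string in this window, capitals mark AP-1 strings (TGACTCA or TGAGTCA) and forkhead strings (ATAAACA or ATAAATA, each also with a first letter G in place of A). AP-1 is the FOS and JUN family of stress-responsive factors, and forkhead factors include the FOX proteins. For the last 2, HIF1A-AS3 and LINC02692, capitals mark the MRE core (TGCACNC or TGCGCNC). The positions are chr3:98980808-98981107 on the plus strand for LINC00973, chr10:4678167-4678466 on the minus strand for MANCR, and chr20:36050969-36051268 on the minus strand for NORAD. They are chr3:69999300-69999599 on the plus strand for SAMMSON, chr14:61751114-61751413 on the minus strand for HIF1A-AS3 and chr9:136968993-136969292 on the plus strand for LINC02692.
LINC00973: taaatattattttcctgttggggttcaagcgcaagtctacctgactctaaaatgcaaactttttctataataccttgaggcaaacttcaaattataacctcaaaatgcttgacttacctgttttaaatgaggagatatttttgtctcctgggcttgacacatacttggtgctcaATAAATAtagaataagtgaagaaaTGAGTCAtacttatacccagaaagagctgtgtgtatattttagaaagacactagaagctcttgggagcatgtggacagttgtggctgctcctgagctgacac
MANCR: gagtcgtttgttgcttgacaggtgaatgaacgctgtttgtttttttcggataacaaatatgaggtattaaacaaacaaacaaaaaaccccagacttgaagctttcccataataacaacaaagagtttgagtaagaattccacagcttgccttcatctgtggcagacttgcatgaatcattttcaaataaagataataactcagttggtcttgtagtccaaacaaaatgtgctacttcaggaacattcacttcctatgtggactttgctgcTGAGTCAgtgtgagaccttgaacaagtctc
NORAD: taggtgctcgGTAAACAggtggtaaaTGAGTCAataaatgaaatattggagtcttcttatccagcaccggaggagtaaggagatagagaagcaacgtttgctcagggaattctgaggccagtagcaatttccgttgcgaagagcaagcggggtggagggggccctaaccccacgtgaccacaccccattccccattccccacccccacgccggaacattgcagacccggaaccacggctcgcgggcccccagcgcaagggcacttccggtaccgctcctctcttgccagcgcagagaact
SAMMSON: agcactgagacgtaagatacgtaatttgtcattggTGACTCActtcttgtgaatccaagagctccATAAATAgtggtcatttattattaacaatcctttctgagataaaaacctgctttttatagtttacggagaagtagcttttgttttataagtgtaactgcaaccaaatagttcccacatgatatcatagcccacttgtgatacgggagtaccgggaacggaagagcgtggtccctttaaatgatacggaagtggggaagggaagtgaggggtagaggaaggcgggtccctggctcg
HIF1A-AS3: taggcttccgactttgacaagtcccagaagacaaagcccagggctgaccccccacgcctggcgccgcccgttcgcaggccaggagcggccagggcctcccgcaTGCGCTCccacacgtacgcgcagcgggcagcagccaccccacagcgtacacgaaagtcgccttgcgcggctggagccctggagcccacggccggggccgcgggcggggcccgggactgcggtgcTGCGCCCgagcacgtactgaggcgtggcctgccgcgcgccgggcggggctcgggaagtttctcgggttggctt
LINC02692: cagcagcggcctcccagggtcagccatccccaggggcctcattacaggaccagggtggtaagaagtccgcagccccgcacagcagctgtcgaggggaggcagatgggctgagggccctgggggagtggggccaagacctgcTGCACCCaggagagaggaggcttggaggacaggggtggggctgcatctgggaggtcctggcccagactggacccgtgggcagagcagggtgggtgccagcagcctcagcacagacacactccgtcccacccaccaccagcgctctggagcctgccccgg

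In these 6 windows the AP-1 string began 52 bp before the start of LINC00973. It lay farther upstream in SAMMSON (215 bp) and NORAD (224 bp) and began at 20 bp after the start in MANCR. HIF1A-AS3 held 2 MRE cores, at 147 and 23 bp before its start, and LINC02692 held 1, at 109 bp before its start. A match is a description of the letters and not evidence that a factor was bound there.

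Most stand-alone lncRNA starts had no MTF-1 peak, and most of those with a peak had it in both conditions. A peak lay within 1 kb in both lists at 1934 of 12435 starts (15.6%, 14.9 to 16.2%), where 32.7% of all gene 5′ ends had one. The control list alone had a peak at 536 starts (4.31%, 3.97 to 4.68%; 3.66% of all 5′ ends) and the cadmium list alone at 253 (2.03%, 1.8 to 2.3%; 1.57% of all 5′ ends). The other 9712 starts (78.1%) had a peak in neither. Counted by list, 19.9% of the starts had a control peak and 17.6% a cadmium peak, against 36.3% and 34.2% of all 5′ ends. A peak in either list was found at 21.9%, against 37.9% of all 5′ ends. For scale, a region of the same size around each genome position would overlap a control peak at 8.95% and a cadmium peak at 7.06% of positions. It would overlap peaks of both lists at 5.93%, control peaks alone at 3.02% and cadmium peaks alone at 1.12%.

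Coding starts were bound more often than stand-alone lncRNA starts. The share with a control peak was 67.0% at 19970 coding 5′ ends, so that stand-alone lncRNA starts lay 47.1 percentage points lower (46.2 to 48.1). For cadmium peaks the difference was 47.6 points (46.6 to 48.5). Among 6321 lncRNA starts within 5 kb of a coding start, 60.9% had a control peak and 58.1% a cadmium peak.

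Peaks at stand-alone lncRNA starts were also less often common to both lists. Of the 2723 stand-alone starts with a peak, 71.0% (69.3 to 72.7%) had it in both lists, against 93.2% of coding starts with a peak and 89.4% of lncRNA starts near coding starts. The difference from coding starts was 22.2 points (20.4 to 23.9). Control-only starts made up 19.7% of the stand-alone starts with a peak and 4.75% of the coding ones, and cadmium-only starts 9.29% and 2.07%. Both one-sided classes were thus larger in share at stand-alone starts. Their balance was alike: control-only starts outnumbered cadmium-only starts 2.12 times at stand-alone lncRNAs, 2.29 times at coding genes and 2.33 times at all 5′ ends.

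**Figure D1:**
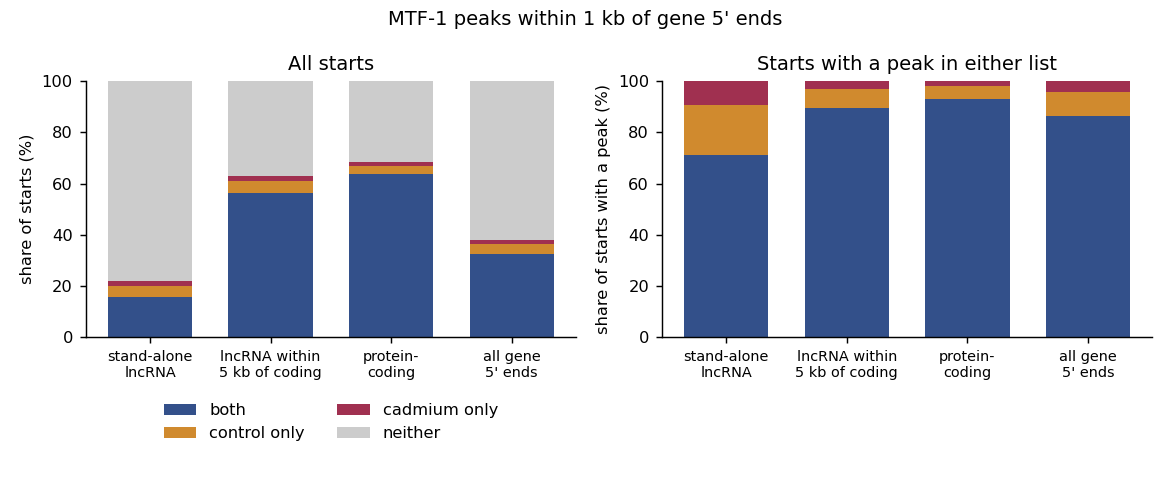
Share of gene 5′ ends (%, vertical axis) with an MTF-1 peak within 1 kb in both lists, the control list only, the cadmium list only or neither, for 4 kinds of start; the left panel is over all starts and the right over starts with a peak. Stand-alone lncRNA starts had a peak in either list at 21.9%, of which 71.0% were in both lists, against 93.2% for coding starts.

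Peaks were centred on these starts. The share of stand-alone starts covered by a control peak was highest at the 5′ end itself, at 15.5%, and fell to 5.73% at 5 kb upstream and 5.89% at 5 kb downstream. In the cadmium list the values were 13.2%, 4.0% and 4.15%. Coding 5′ ends reached 63.2% and 60.8%. The widest peak covered the start itself at 77.7% of the stand-alone starts with a control peak and at 75.1% of those with a cadmium peak. Its centre lay downstream at 52.1% (50.1 to 54.1%) and 52.8% (50.7 to 54.9%) of them, close to an even split. At coding starts it lay downstream at 63.8% and 65.4%, and at lncRNA starts near coding starts at 44.5% and 43.3%.

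**Figure D2:**
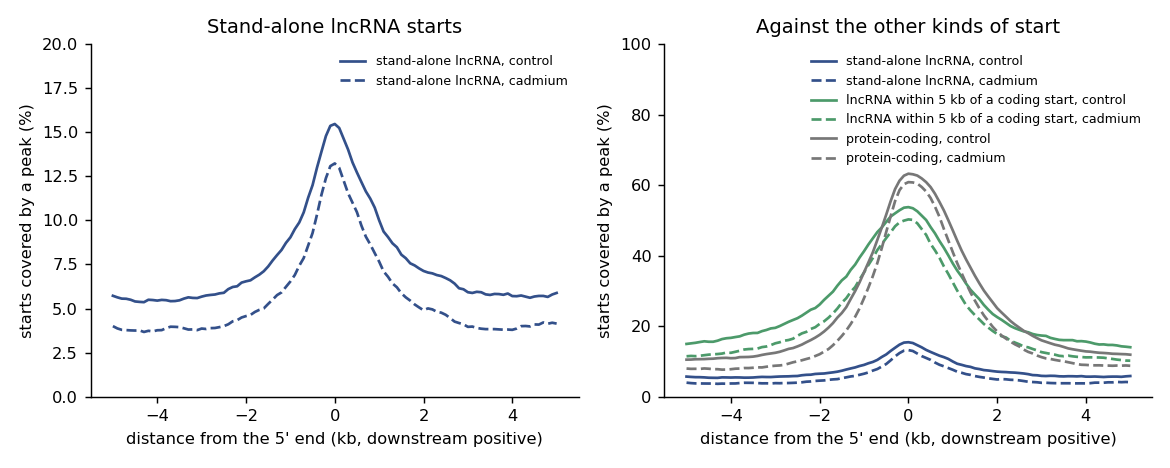
Share of starts covered by a peak (%, vertical axis) at each distance from the 5′ end in kb (horizontal axis, downstream positive), in the control (solid) and cadmium (dashed) lists. Stand-alone lncRNA starts rose to 15.5% and 13.2% at the 5′ end, and coding starts to 63.2% and 60.8%.

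Width is the only measure of a peak in these lists. At stand-alone starts the median control peak was 1999 bp wide (1799 to 1999 bp) and the median cadmium peak 1599 bp (1399 to 1599 bp), narrower than at coding starts, with 2599 and 2199 bp. Control peaks ranged from 199 to 27799 bp and cadmium peaks from 199 to 35399 bp. Peaks at starts in one list only were narrower than those at shared starts. Control-only peaks had a median of 1599 bp, and cadmium-only peaks of 999 bp, with 53.8% of the latter under 1000 bp. They were not narrow for their lists, since the median over all peaks was 1399 bp in the control list and 999 bp in the cadmium list.

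At the 1934 shared starts the cadmium peak was narrower than the control peak at 1104, equal at 291 and wider at 539. The 2 peaks compared both reach the region of the start but need not overlap each other. The median log2 of cadmium over control width was -0.21 (-0.26 to -0.17), and it was also -0.21 at coding starts. The median length covered within the region of 1 kb on either side, which cannot exceed the 2001 bp of the region, was 1399 bp in control and 1199.5 bp in cadmium. Large changes of width were more common than at coding starts. The cadmium peak was at least 2 times narrower at 420 stand-alone starts (21.7%, against 14.0% of coding starts) and at least 2 times wider at 134 (6.93%, against 2.92%). This comparison was not matched for width. The control peak was under 1000 bp at 21.4% of shared stand-alone starts and 6.92% of shared coding starts, and in a narrow peak fewer bins of 200 bp make such a change.

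A wide control peak was less often matched in cadmium at stand-alone starts than at coding starts of the same width. Of stand-alone starts whose control peak was 199 to 399 bp wide, 62.3% (54.3 to 69.6%) also had a cadmium peak, and of coding starts 58.6% (49.9 to 66.8%), with overlapping intervals. From 1599 to 2199 bp the shares were 83.0% (79.6 to 86.0%) and 95.9% (95.2 to 96.6%). At 4199 bp and over they were 82.3% (78.3 to 85.7%) and 97.0% (96.3 to 97.5%). The stand-alone shares thus levelled off near 82%.

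**Figure D3:**
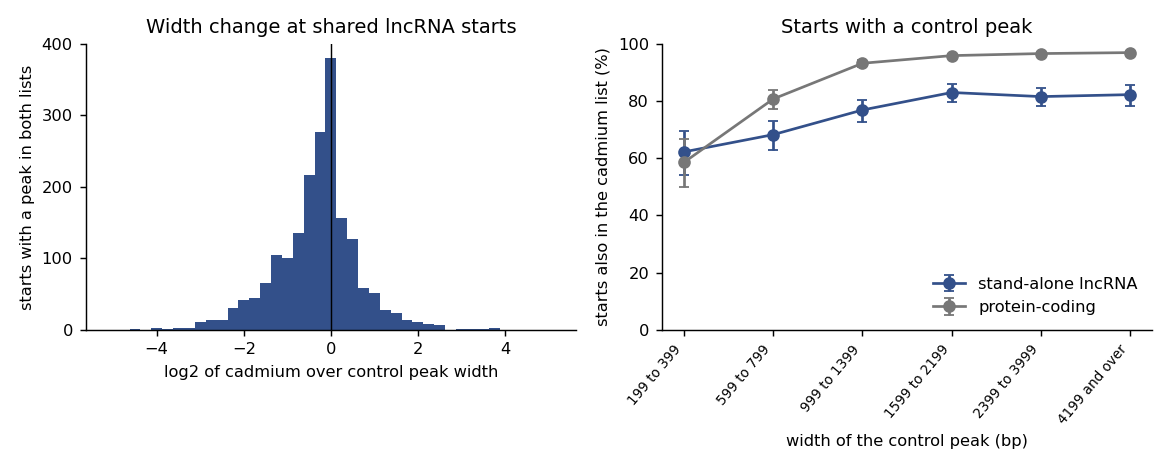
Left, number of stand-alone lncRNA starts with a peak in both lists (vertical axis) by the log2 of cadmium over control peak width (horizontal axis; equal widths fall in the bar at 0). Right, share of starts with a control peak that also had a cadmium peak (%, with 95% Wilson intervals) by the width of the control peak in bp: 62.3% to 83.0% at stand-alone starts and 58.6% to 97.0% at coding starts.

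Most starts in one list only rested on peaks with no counterpart in the other list. At 413 of the 536 control-only starts (77.1%, 73.3 to 80.4%) no base of the control peaks was in the cadmium list. At the other 123 they reached a cadmium peak outside the region. Of the 253 cadmium-only starts, 201 (79.4%, 74.0 to 84.0%) had peaks that shared no base with the control list. Starts in neither list lay a median of 20393 bp from the closest peak. Of these, 1781 (18.3%) had a peak within 5 kb and 2932 (30.2%) none within 50 kb.

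Binding followed base composition and the distance to coding genes. The starts were put in 5 groups by the GC content of their region, with limits that cut all gene 5′ ends into groups of equal size (at 39.9%, 44.9%, 50.6% and 57.4% GC). The share of stand-alone starts with a peak in either list was 7.16% in the group of lowest GC content, then 14.1%, 23.6% and 39.5%, and 53.6% in the highest. Coding starts were above stand-alone starts in every group, with a difference in the control list (stand-alone minus coding) of -6.21 points (-8.24 to -4.32) in the lowest and -32.5 points (-35.7 to -29.3) in the highest. By the ratio of observed to expected CpG, 12.5% of stand-alone starts under 0.2 had a peak and 63.6% of those over 0.6, the range of CpG islands. In that last group 92.8% of the starts with a peak had it in both lists, near the coding value of 93.2%.

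The balance of control-only and cadmium-only starts changed with GC content. In the group of lowest GC content there were 98 control-only and 18 cadmium-only stand-alone starts, a ratio of 5.44, with 84.5% control only (76.8 to 90.0%). The ratio was 2.72, 2.00 and 1.56 in the next groups. In the highest there were 52 and 43, a ratio of 1.21, with 54.7% control only (44.7 to 64.4%). Coding starts had a ratio of 6.22 in the lowest group and 1.8 in the highest, so the trend was not particular to stand-alone starts. The GC content of the reads in each list is not known here, and its part in this result was not tested.

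Among all 18756 lncRNA starts the share with a peak fell steeply over the first kilobases from a coding start. It was 76.1% within 1 kb, 51.9% at 1 to 2 kb and 30.5% at 4 to 5 kb. There was no step at the 5 kb limit, since it was 29.9% (25.6 to 34.7%) at 5 to 6 kb and 26.4% at 20 to 50 kb. Beyond that it declined to 10.4% at 200 to 500 kb and 5.55% over 500 kb, where the median GC content was also lowest. Of the named genes just over the limit, MYT1L-AS1 (5002 bp) and ARSD-AS1 (5016 bp) had no peak and XIRP2-AS1 (5010 bp) had one of 999 bp in each list. Just under it, LINC02918 (4974 bp) had none, LINC01569 (4951 bp) had peaks of 1799 and 1599 bp, and LINC02924 (4947 bp) had a control peak of 15599 bp only.

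**Figure D4:**
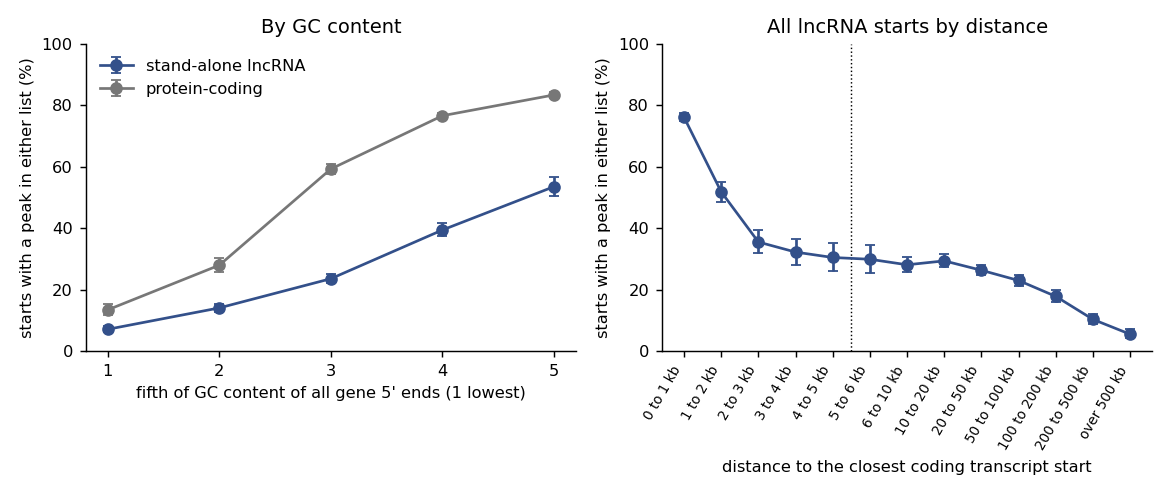
Share of starts with a peak in either list (%, with 95% Wilson intervals) by group of GC content for stand-alone lncRNA and coding starts (left), and for all lncRNA starts by distance to the closest coding transcript start (right, the dotted line is the 5 kb limit). The share rose from 7.16% to 53.6% with GC content at stand-alone starts and fell from 76.1% to 5.55% with distance.

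Annotation of the gene also went with binding. Starts outside coding genes had a peak at 23.4% (22.6 to 24.3%), those inside a coding gene on the opposite strand at 17.8% (16.3 to 19.5%) and on the same strand at 16.0% (13.8 to 18.5%). Genes with 1 annotated transcript had a peak at 19.4% (18.6 to 20.3%) and those with over 5 at 33.4% (30.9 to 36.0%). In both comparisons the interval of the highest share did not overlap the others.

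AP-1 strings were more frequent at stand-alone starts with a peak. TGACTCA and TGAGTCA, which are reverse complements of each other, were counted on both strands. In the 300 bases of the window shown above, 11.9% of starts with a peak in both lists held an AP-1 string (10.5 to 13.4%), 10.4% of control-only starts (8.13 to 13.3%), 7.91% of cadmium-only starts (5.18 to 11.9%) and 5.44% of starts with no peak (5.0 to 5.91%). The share was 4.66% over all gene 5′ ends. At coding starts it was 3.51% in both lists, 4.78% control only, 9.19% (6.35 to 13.1%) cadmium only and 4.66% (4.17 to 5.21%) in neither. The intervals of shared and control-only stand-alone starts lay above that of stand-alone starts in neither list, and the cadmium-only interval overlapped it. Over the whole region of 2001 bases the stand-alone shares were 39.7%, 36.0%, 36.4% and 28.7%, against 24.9% of all 5′ ends.

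At shared and control-only starts the AP-1 strings gathered just upstream of the 5′ end. In the 100 bases before the start there were 70.3 AP-1 strings per 1000 starts with a peak in both lists, and 20.7 per 1000 in an average 100 bases at the outer edges of the region. At control-only starts the same 100 bases were also the highest, with 48.5 per 1000. At the 253 cadmium-only starts there were 10 strings (39.5 per 1000) in the 100 bases before the start. At 600 to 700 bases downstream there were 11 (43.5 per 1000, their highest value). These counts are too small to place a peak of strings. An average 100 bases held 31.6 per 1000 at the centre and 20.8 at the outer edges. At starts in neither list the highest value was 21.9 per 1000, also in those 100 bases. LINC00973 above, a start with a peak in both lists, has its string 52 bp upstream. The difference between starts with and without a peak was also seen among starts of like GC content, other than the highest. In the group of lowest GC content 20% (15.5 to 25.5%) of stand-alone starts with a peak held an AP-1 string in 300 bases, against 5.73% (4.97 to 6.59%) of those without. In the fourth group it was 9.04% against 4.22%, and in the group of highest GC content 4.74% against 3.16%, with overlapping intervals. Coding starts of lowest GC content differed too, at 14.6% (10.2 to 20.4%) with a peak and 5.65% (4.47 to 7.11%) without. In the other groups of coding starts the intervals overlapped.

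Forkhead strings were less frequent at starts with a peak, but within groups of like GC content most shares lay close or in the other order. Over the region they were found at 66.3% of starts with a peak in both lists, 76.3% of control-only starts, 67.2% of cadmium-only starts and 81.7% of starts in neither list. They are rich in A and T, and the median GC content of these classes was 51.5%, 46.2%, 50% and 43.0%. In the first 4 groups of GC content the shares at shared starts and at starts in neither list lay close, at 98.4% and 95.8%, 88.0% and 88.9%, 77.7% and 75.02%, and 60.3% and 61.2%. In the highest group they were 41.7% (37.3 to 46.3%) and 34.3% (30.2 to 38.7%), so that shared starts had the higher share. Control-only starts stood apart from starts in neither list in the third group only, at 84.7% (78.0 to 89.7%) against 75.02% (73.2 to 76.8%). In 300 bases the lower share at starts with a peak remained in the group of lowest GC content. It was 24.9% (19.9 to 30.7%) with a peak and 33.4% (31.8 to 35.0%) without, and in the other groups the intervals overlapped. Toward the 5′ end forkhead strings became fewer in every class: at shared starts 49.6 per 1000 starts in an average 100 bases at the centre against 93.8 at the outer edges. The MRE core was found at 85.3% of regions with a peak in both lists and at 71.8% of those in neither. Much of this gap was not seen within groups of GC content, where these shares were 51.9% and 55.9% in the lowest, then 71.2% and 72.5%, 84.7% and 81.1%, 91.8% and 87.8%, and 94.0% and 89.7% in the highest. In 300 bases it was found at 30.1% (28.1 to 32.2%), 19.6% (16.5 to 23.2%), 22.5% (17.8 to 28.1%) and 18.4% (17.6 to 19.2%) of the classes in the same order, and at 25.8% of all gene 5′ ends. It holds 1 free base and is short, so it is common in any sequence. TGCACACG is listed for MTF-1 in the JASPAR database, but the study does not regard it as a true MTF-1 motif. It was in 22 of the 300-base windows of shared starts (1.14%, 0.752 to 1.72%) and 39 of those in neither list (0.402%, 0.294 to 0.548%). The share was 0.548% over all gene 5′ ends and 0.723% at shared coding starts. This string was not compared within groups of GC content.

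**Figure D5:**
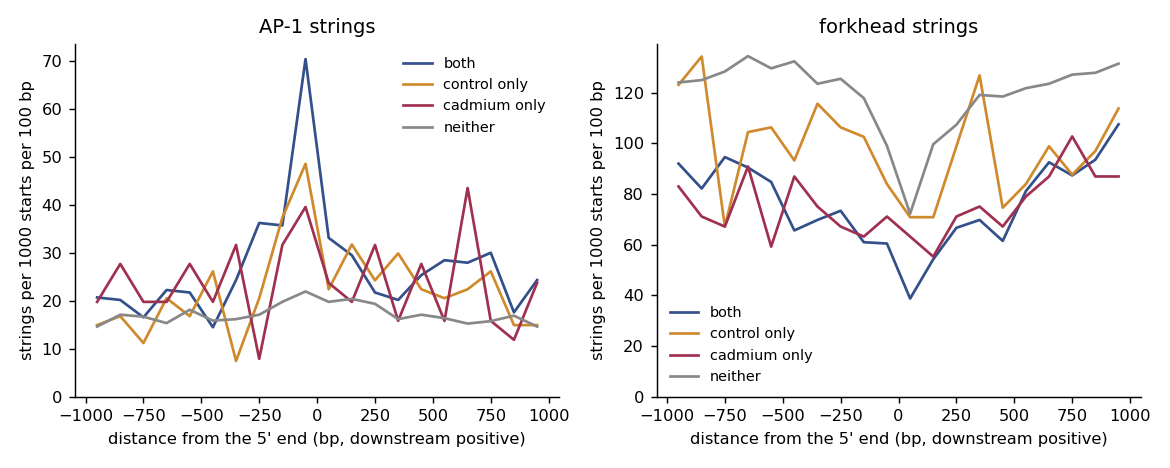
AP-1 (left) and forkhead (right) strings per 1000 starts in each 100 bp (vertical axis) by distance from the 5′ end in bp (horizontal axis, downstream positive), for stand-alone lncRNA starts in the 4 classes. AP-1 strings reached 70.3 per 1000 in the 100 bp before starts with a peak in both lists, and 21.9 at starts in neither.

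The widest peaks at named lncRNA starts covered much or all of the gene in at least 1 list. NEAT1, the scaffold RNA of nuclear paraspeckles, had a control peak of 21799 bp and a cadmium peak of 35399 bp around its start at position 65422774 of chromosome 11, and the share of the gene covered was 92.1% and 100%. MALAT1, an abundant RNA of nuclear speckles, lay in peaks of 15799 and 12999 bp on the same chromosome that covered the whole gene and also the start of its antisense gene TALAM1. MIR210HG, host of a hypoxia-induced microRNA, had peaks of 27799 and 12799 bp. Its closest coding transcript start lay 6072 bp away. The control peak reached farther than that on both sides, so it also covered a coding start and cannot be assigned to MIR210HG alone. MIR23AHG, host of the miR-23a cluster, had peaks of 25799 and 22199 bp. The peaks of LINC02870 (1799 and 20199 bp) and CROCCP2 (19599 and 4399 bp) differed most between the lists among these widest ones, in opposite directions. CROCCP2, like LSP1P5 and MIR1302-2HG below, has near-identical copies elsewhere in the genome, so reads counted there could come from another copy.

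Named starts with a control peak only were led by KRT87P, a keratin pseudogene, with 17999 bp. AFAP1-AS1, an antisense RNA linked to several tumours, followed with a control peak of 9599 bp and no cadmium peak anywhere in the gene, of which control peaks covered 29.5%. DUBR (8599 bp), LINC02827 (8199 bp) and LINC02598 (6199 bp) came next. DUBR shows how the class rests on which start is used: its gene 5′ end had a control peak only, but 30 of its 33 transcripts had a control peak at their start and 29 a cadmium peak. The control peak counted for LINC02827 reached 82 bases into its region.

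Named starts with a cadmium peak only had narrower peaks. LINC02692, whose MRE core is shown above, had a cadmium peak of 10599 bp that covered all of the gene, of which a control peak outside the region of the start covered 57.9%. LINC02884 had 4599 bp and 3 of its 8 transcript starts had a control peak as well. MAFA-AS1 had 4399 bp, and LINC01411 and LINC01620 had 2999 bp each.

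At shared named starts the largest narrowing was at LINC02761, from 4399 bp in control to 199 bp in cadmium. LINC02902 went from 6799 to 599 bp, LINC01588 from 4199 to 399 bp, ATP6V0E2-AS1 from 6399 to 799 bp and NINJ2-AS1 from 4799 to 599 bp. The largest rise in width after LINC02870 was at C3orf36, with 399 bp in control and 2199 bp in cadmium. Its 2 peaks lay on either side of the start and shared no base, so they are separate peaks and not 1 that widened. LSP1P5 (599 to 3199 bp), LINC02096 (399 to 1999 bp) and LINC01978 (1599 to 6999 bp) followed. Control peaks covered 64.1% of the LINC01588 gene and cadmium peaks 23.5%.

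Of lncRNAs known from cancer or breast tissue, 27 of the 39 listed were stand-alone, and 13 of them had a peak in both lists, 2 in the control list only, none in the cadmium list only and 12 in neither, that is 55.6% with a peak against 21.9% of all stand-alone starts. That background, used for each list below too, is unlike the listed genes, which are well known. It holds 8936 genes with an Ensembl identifier only, of which 20.3% had a peak. Among 561 genes with a symbol outside the families below, 37.6% had one. Besides NEAT1 and MALAT1, shared starts included CYTOR (3599 bp in each list), NORAD, a DNA damage-induced RNA that binds PUMILIO proteins (2199 and 3399 bp), and UCA1, linked to bladder cancer (1799 and 2599 bp). LINC00261, an endoderm RNA, went from 13199 to 1799 bp, LINC00963 from 5199 to 799 bp and LINC01234 from 2399 to 399 bp. The LINC00261 control peak reached farther upstream than the 5930 bp to its closest coding transcript start, so it may cover a coding start as well. The peaks of LINC00707 were 599 and 1399 bp wide.

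CASC15 and SAMMSON, a melanoma-associated RNA, were the control-only members of this list. CASC15 had a control peak of 2799 bp, with a control peak at 19 of its 111 transcript starts and a cadmium peak at none. SAMMSON had one of 599 bp, with 25 of 28 transcript starts in the control list and none in the cadmium list. Members in neither list included H19, MEG3, BCAR4, DSCAM-AS1 and LINC01016, the last a gene known from oestrogen receptor-positive cells. For LINC00511 and LINC00460 the gene 5′ end gave an incomplete account. LINC00511 had a control peak at 84 and a cadmium peak at 68 of its 107 transcript starts, and LINC00460 had both at 6 of 7.

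Of lncRNAs known from stress, oxidation or hypoxia, 10 of 20 listed were stand-alone, and 7 had a peak in both lists and 3 in neither, that is 70% with a peak against the same 21.9%. LUCAT1, a stress-induced RNA known as a target of NRF2, had peaks of 3999 and 3399 bp. HIF1A-AS3, which starts near HIF1A, had 8599 and 7399 bp, LNCTAM34A (GUARDIN), a p53-induced RNA, 3599 and 3199 bp, and EPB41L4A-AS1 2599 and 1799 bp. PURPL and PINCR, both p53-regulated, and LINC01705 had none. Each of the shared members other than NEAT1 and NORAD had a narrower cadmium peak, as did 57.1% of all shared stand-alone starts.

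Starts of lncRNAs from other cell types had a peak about as often as all stand-alone starts, most of which belong to genes without a symbol. Of lncRNAs restricted to other tissues or imprinted, 20 of 24 listed were stand-alone, with 5 in both lists and 15 in neither, that is 25% with a peak against 21.9% of all stand-alone starts. The 5 were KCNQ1OT1, an imprinted antisense RNA (4399 and 3999 bp), LINC00261, LINC00461, LINC01108 and MIAT. RMST, DLX6-AS1, MEG8, MEG9 and PWRN1 were among those with none.

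The last list was of lncRNAs among the genes whose RNA the study found to differ between these cells. It was drawn from the same lines, so it is not independent of them. Of 30 lncRNAs taken from it, 23 were stand-alone, and 13 of these had a peak in both lists, 4 in the control list only, 0 in the cadmium list only and 6 in neither. The share with a peak was 73.9%, against 21.9% of all stand-alone starts, of which 4.31% were control only and 2.03% cadmium only. MANCR, named for mitosis (3199 and 1199 bp), LINC00659 (6399 and 5799 bp), LINC01537 (2999 and 1799 bp), LINC00973 (599 and 999 bp) and LINC01204 (399 bp in each) were shared. ARHGAP29-AS1 went from 9799 to 5999 bp and LINC03040 from 10999 to 3199 bp. HHLA3-AS1 had a control peak of 3399 bp only and POU2F2-AS2 one of 4599 bp only. CASC19 was also control only, but its control peak of 4199 bp reached 59 bases into the region. Of its 89 transcript starts, 20 had a control peak and 23 a cadmium peak. LINC01929, LINC02188 and MIR137HG had none.

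Host genes of small RNAs were bound more often than stand-alone lncRNAs at large. Of 15 small nucleolar RNA host genes (SNHG), whose introns hold guides for the chemical modification of ribosomal RNA, 13 had a peak in both lists and 2 in neither, that is 86.7% with a peak (62.1 to 96.3%). Among them SNHG7 had 13999 and 14799 bp, SNHG32 12599 and 11199 bp, SNHG17 11199 and 2399 bp, SNHG26 8799 and 3399 bp and SNHG30 1199 bp in each list. Of 67 microRNA host genes, 19 were in both lists, 1 in the control list only, 5 in the cadmium list only and 42 in neither, that is 37.3% with a peak (26.7 to 49.3%). The 561 genes whose symbol put them in no family had a like share, 37.6% (33.7 to 41.7%), so that of microRNA hosts was not particular to them. Median GC content was 49.9% at microRNA hosts and 49.4% at these 561 genes, against 44.5% at all stand-alone starts.

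MIRLET7BHG, host of let-7 microRNAs, lay in peaks of 8599 and 6599 bp on chromosome 22, and 5 stand-alone starts shared each of these, the most of any peak. MIR17HG, host of the miR-17-92 cluster, had 5199 and 5399 bp, and MIR222HG 3399 and 2199 bp. The control-only host gene was MIR7-3HG, whose 56 transcript starts all had a control peak and none a cadmium peak. This held for the starts only, since control peaks covered 16.2% of the gene and cadmium peaks 18.7%. The cadmium-only hosts were MIR3663HG (2599 bp), MIR924HG (1799 bp), MIR3681HG (599 bp), MIR2052HG (599 bp) and MIR1302-2HG (199 bp). Of the 17 transcript starts of MIR3681HG, 5 had a control peak and 6 a cadmium peak. Genes named LINC were near the average, with a shared peak at 361, a control-only peak at 89, a cadmium-only peak at 45 and none at 1613. So were the 8936 genes with an Ensembl identifier only, of which 20.3% had a peak.

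Starts were not all separate sites. The 12435 regions merged into 11841, and 1148 overlapped the region of another stand-alone start. The starts with a peak rested on 2257 control peaks, 3.26% of that list, and on 1986 cadmium peaks, 3.30% of that list. Of these, 221 and 202 were shared by at least 2 starts. A peak that also reached the 1 kb region of a coding 5′ end was counted at 27 starts in the control list and at 13 in the cadmium list.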

How the data were processed

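MTF-1 CUT&RUN was measured in 4 libraries, 2 per group. The authors trimmed adaptors, aligned paired reads to hg38 with Bowtie2, merged the libraries of each group with SAMtools 1.8 and ran Epic2 on each merge at default settings (listed as SICER 0.0.50 in the submitters' processing notes), with no control library named. The deposited lists hold peak positions in bp and a score column that has the value 5 throughout, which was not used. Here, gene and transcript starts were taken from GENCODE 44, and a peak was counted where it shared at least 1 base with the region. Where several overlapped, the widest gave the width. Shares have Wilson intervals, differences Newcombe intervals and medians order-statistic intervals, computed with numpy 2.4.6 and pandas 2.3.3. Sequence was read with pysam 0.24.0. All of 4000 simulated starts were put in their class. The genome file is not repeat-masked, so repeats were not examined. Sequences of other list members are not reported here.

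Genes were named by rule: all stand-alone members of 4 gene lists, the families by symbol, the 5 widest peaks per class, the 5 largest narrowings and widenings, and the 3 genes on either side of the 5 kb limit. Lists were matched by symbol, older symbol or, for the study's expression list, gene identifier. The members and lists were chosen with earlier results of these data known. Alternatives changed the region, the overlap, the widths, the distance limit, the starts counted and the sequence window, and 1, which left out starts near pseudogene starts, was added after seeing the data. Since peaks were called after merging, a start is either in a list or absent from it, and a slight shift of signal near the caller's limit can decide this.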

Additional observations from a re-analysis of the deposited data

How the results depend on the processing

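No paired analysis was possible because the authors merged the replicates of each condition before calling peaks, and for the same reason no replicate could be left out. Of 77 values under another setting, 47 stayed within 1.5 times the count or within the interval of the value given above, and 30 did not. None changed sign, and control-only starts outnumbered cadmium-only starts under every setting for the classes, by 1.27 times (peak centre in the region) to 2.83 times (peaks of at least 1000 bp). Genes with a symbol, which are fewer, gave 681 shared, 149 control-only and 82 cadmium-only starts and 2587 with no peak. With peaks of at least 1000 bp only, 1231 starts were in both lists. Median control width was 1296 bp as bases covered in the region and 1599 bp for peaks centred in it, and median cadmium width 1192 bp as bases covered. The median log2 width ratio was 0.0 for bases covered, which the region limits to its own length. The difference from coding starts, stand-alone minus coding, was -45.6 points in the control and -46.3 in the cadmium list at 2 kb, and -45.7 in the cadmium list for peaks of at least 1000 bp. Over the 5 groups of GC content, from lowest to highest, it was -6.21, -13.7, -36.8, -39.4 and -32.5 points in the control list and -5.11, -13.4, -37.1, -39.6 and -32.1 in the cadmium list. In the shorter window of 300 bases AP-1 strings were at 11.9% (both), 10.4% (control only), 7.91% (cadmium only) and 5.44% (neither) of starts, and forkhead strings at 14.0%, 20.5%, 16.6% and 23.8%. Unknown depth, a missing signal height and single lists limit all of these values. Whether a start in one list only reflects a change of binding or a difference in reads was not tested.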

Other observations

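The classes were spread unevenly over chromosomes. The share of stand-alone lncRNA starts with a peak ranged from 10.6% on chromosome 18 (43 of 406) to 32.5% on chromosome 20 (101 of 311). On chromosome 11, 62 starts had a control peak only and 9 a cadmium peak only, and at coding starts these numbers were 66 and 25. On chromosome 4 they were 33 and 3, and at coding starts 33 and 4. On chromosome 22 the order was the other way, with 4 control-only and 14 cadmium-only starts, and 7 and 11 at coding starts. On chromosome 16 they were 14 and 18, and 11 and 29 at coding starts.

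Parts of this were local. From 70 to 75 Mb of chromosome 11, 10 of 28 stand-alone starts were control only and 0 cadmium only, and at coding starts 8 of 59 and 0. From 75 to 80 Mb there were 7 and 0 of 34. From 25 to 30 Mb of chromosome 22, 0 of 44 stand-alone starts were control only and 6 were cadmium only, and coding starts there had 0 of either. The windows were picked after their values were seen and no test was run on them. The number of copies of these segments in each population of cells is not known here, and its part in these counts was not tested.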
